A study of Mus musculus with 24 samples.

Results

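Two-colour spotted arrays were used to set delayed postconditioning (Post30) against early postconditioning (PostC) in the ischemic region of hearts of C57BL/6 mice. The arrays were chosen by their labels: 12 of the 24 arrays of the series, 6 with Post30 RNA and 6 with PostC RNA in channel 2. In every group a coronary artery was occluded for 40 min under anesthesia and then reopened for 60 min (ischemia and reperfusion, IR). Post30 hearts also received 3 brief cycles, each a 1 min occlusion followed by a 1 min release, at 30 min of reperfusion, and PostC hearts received the same 3 cycles at 1 min. By the labels, channel 1 of every array held RNA from the ischemic region after IR alone. Each group had 3 replicate numbers, and each number was hybridised in both dye orientations, which were averaged to 1 extract pair. The comparison was therefore 3 against 3 extract pairs. The other 12 arrays held preconditioned hearts (PreC), whose cycles came 10 min before ischemia, and tissue from outside the ischemic region after IR alone. Whether a replicate number is 1 heart, a pool or a repeat of the same RNA is not in the labels, so the p-values here cover the spread among these extract pairs alone, and that spread may be technical.

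Postconditioning is a series of brief occlusions made after an occluded coronary artery has been reopened. It is known for limiting reperfusion injury in animal hearts, an effect attributed to survival-kinase signalling and to less opening of the mitochondrial permeability transition pore, and the interval between reopening and the first cycle is treated as one of its main variables. Because reperfusion lasted 60 min in both groups, the delayed cycles also lay closer to the end of reperfusion, so the delay and the time left after the cycles cannot be told apart.

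The ratio reported throughout is the log2 ratio of a group's RNA over IR RNA, and the difference is Post30 minus PostC, paired by replicate number. No file gives a gene for a probe ID, and the gene table (assembly GRCm38.p6) held 0 of the 16463 mouse probe IDs. No transcript, pathway or cell type can therefore be named here, and cell type markers could not be read. In these bulk samples, fewer cells of a type and less RNA per cell cannot be told apart. The direction of every ratio is likely and not settled. It takes the channel numbers of the files to be those of the labels, and read so, Cy3 had the higher background on 24 of 24 arrays. The reverse reading would give Cy5 the higher background on all of them, so this count cannot by itself decide the direction.

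The data were near the floor of the arrays for most probes. Between 33.1% and 41.4% of mouse spots (median 37.6%) lay, after background subtraction, above the 95th percentile of the empty spots in the group's channel of the Post30 arrays, against 30.1% to 41.2% (median 34.7%) on the PostC arrays. By replicate number, the mean of both orientations was 37.6%, 40.5% and 33.2% in Post30, against 34.3%, 35.7% and 34.9% in PostC. Post30 was the higher in numbers 1 and 2 and the lower in number 3.

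The delayed and the early protocol differed at few probes, and the probes that passed were all lower after the delayed protocol. Of 16371 probes, 3 (0.0183%) had an adjusted p under 0.05 (limma, Benjamini-Hochberg), of which 0 were higher and 3 lower in Post30. The 3 were bright, were detected on 12 of 12 arrays in the group's channel, and lay below IR in Post30 and slightly above it in PostC. An unadjusted p under 0.05 was reached by 1086 probes (6.63%), 557 higher (3.4%) and 529 lower (3.23%). The spread of the differences was small, with a median absolute log2 difference of 0.06 and 98% of the probes between -0.27 and 0.28. Most of these probes were near the floor of the arrays, where small differences say little about likeness of the protocols. The calls rest on these libraries as a set. Leaving out Post30 replicate 1, 2 or 3 or PostC replicate 1 or 2 left 0 calls, and leaving out PostC replicate 3 gave 3 calls, of which 2 were among the original 3. Without number 3 in every group there were 3 calls, 1 of them among the original 3. Without number 2 in every group there were 4 calls, 2 higher and 2 lower, with 0 of the original 3 among them. With the offset of 50 that was first planned there were 0 calls and a smallest adjusted p of 0.462 with limma, beside 1111 probes with an unadjusted p under 0.05. Scaling to the control probes, which adds 0.13 to the median difference, turned the split at an unadjusted p under 0.05 to 355 higher and 26 lower, and that of the calls to 2 higher and 1 lower. No background subtraction and the authors' values each gave 1 higher and 1 lower call.

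The probe Mm::M200009417 fell the most. Its log2 ratio over IR was -0.94, -1.24 and -1.51 in Post30 replicates 1, 2 and 3, against 0.41, 0.19 and -0.43 in PostC replicates 1, 2 and 3. The groups did not overlap, and within each number the Post30 value was the lower by 1.08 to 1.43 (differences of -1.35, -1.43 and -1.08). The mean difference was -1.29 (SE 0.15, adjusted p = 0.0112 with limma), which is a 2.44-fold lower level in Post30. It is among the brightest probes, with 99.2% of the probes tested dimmer than it. The raw group-channel intensity was 51.4 to 105 (median 78.4) on the 6 Post30 arrays, against 122 to 212 (median 193) on the 6 PostC arrays. No Post30 array reached the lowest PostC array. In the same arrays the raw IR channel had a median of 218 on Post30 arrays and 190 on PostC arrays. On the normalized scale, the group's channel differed by -1.14 and the IR channel by 0.15 between the arrays of the 2 protocols. The PreC ratios of the same numbers were 0.55, -0.14 and -0.45, above all 3 Post30 values. Without the pairing by number the adjusted p of this probe was 0.222 with limma. It was above 0.05, up to 0.0854, without Post30 replicate 1, 2 or 3 or PostC replicate 1 or 2, and 0.0163 without PostC replicate 3. It was 0.462 with the offset of 50 and 0.101 with IR in Cy3 only.

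Mm::M200001855 fell with little scatter. Its ratio over IR was -0.52, -0.43 and -0.59 in Post30 replicates 1, 2 and 3, against 0.26, 0.12 and 0.09 in PostC. The groups did not overlap, and the paired differences were -0.77, -0.55 and -0.68. The mean difference was -0.67 (SE 0.088, adjusted p = 0.0175 with limma), a 1.59-fold lower level in Post30. Its raw group-channel intensity was 27.4 to 52.2 (median 47.1) on Post30 arrays, against 42.6 to 102 (median 64.1) on PostC arrays. These raw ranges overlapped. The raw IR-channel medians were 70.1 on Post30 arrays and 70.5 on PostC arrays. On the normalized scale the group's channel differed by -0.64 and the IR channel by 0.03. The preconditioned hearts lay between the protocols at -0.25 ± 0.04 and the non-ischemic region at -0.16 ± 0.16 (SD, n = 3 each). Its adjusted p with limma was 0.0237 without the pairing. It was above 0.05, up to 0.121, without Post30 replicate 1, 2 or 3 or PostC replicate 1 or 2, and 0.0478 without PostC replicate 3. The call was also lost with no background subtraction (0.0699), with the authors' values (0.0710), under median centring (0.133), after scaling to the control probes (0.885), with the offset of 50 (0.462), with IR in Cy3 only (0.101) and with IR in Cy5 only (0.122).

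The third probe that passed was lower in Post30 by a log2 difference of -0.55 (SE 0.079, adjusted p = 0.0336 with limma). Its ratio was -0.45, -0.57 and -0.55 in Post30 replicates 1, 2 and 3, against 0.03, 0.10 and -0.06 in PostC, and the groups did not overlap. Here the IR channel carried part of the difference, with 0.16 in the IR channel and -0.39 in the group's channel on the normalized scale. This probe did not pass without the pairing by number, or with Post30 and PostC alone in the fit. The call was also lost with no background subtraction, with the authors' values, under median centring and after scaling to the control probes. It was lost as well with the offset of 50, with IR in Cy3 only, with IR in Cy5 only and in every run that left out a replicate.

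**Figure D1:**
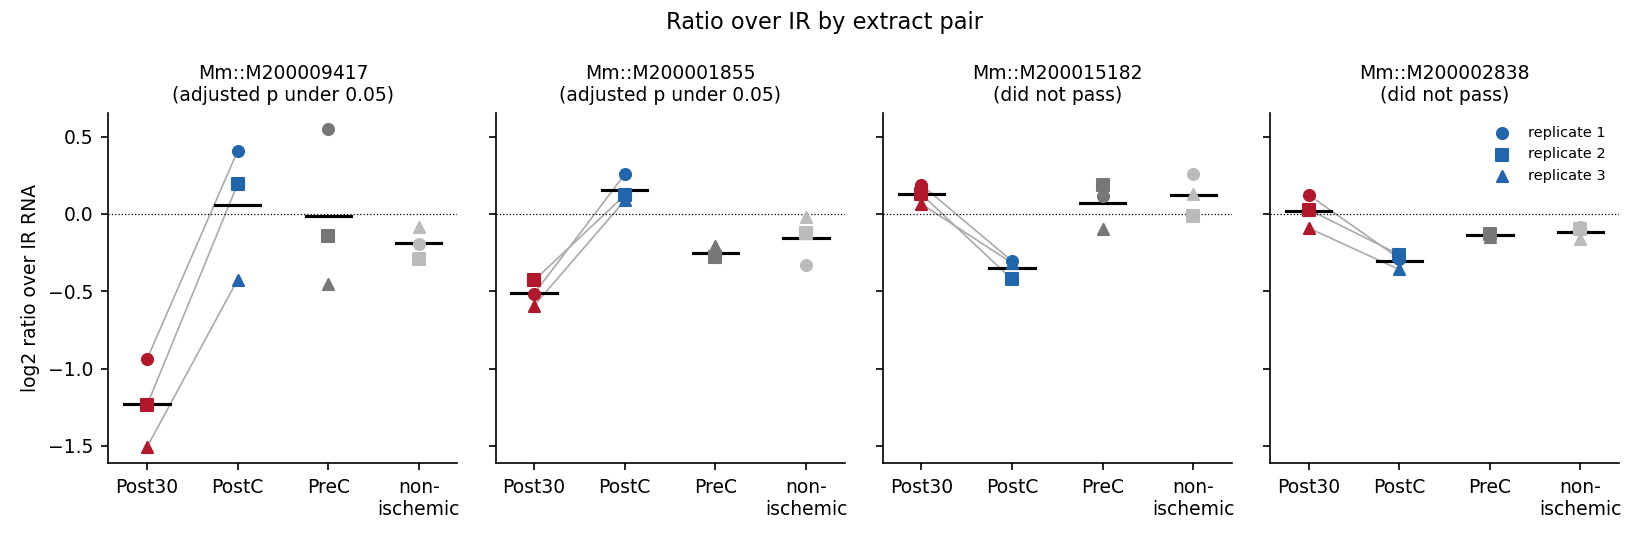
Log2 ratio over IR RNA of the 4 named probes in each extract pair (mean of both dye orientations), with circles, squares and triangles for replicates 1, 2 and 3, black bars for group means and grey lines joining Post30 and PostC of the same number. In both probes that passed, every Post30 point lies below every PostC point. In the other 2 probes, which did not pass, every Post30 point lies above every PostC point.

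No probe passed in the other direction, so the 2 probes shown for it were chosen by the smallest unadjusted p among detected probes with the same sign in all 3 numbers. Mm::M200015182 had ratios of 0.19, 0.13 and 0.06 in Post30 replicates 1, 2 and 3, against -0.31, -0.42 and -0.32 in PostC. The difference was 0.48 (SE 0.084, adjusted p = 0.0664 with limma). Under the alternatives its adjusted p with limma ran from 0.0546 among probes detected on most arrays to 0.999 under median centring. Its difference ran from 0.04 with the offset of 50 to 0.61 after scaling to the control probes. The groups did not overlap, but the dye orientations disagreed, in sign in number 2: with IR in Cy3 the differences were 0.90, -0.03 and 0.29 in numbers 1, 2 and 3, and with IR in Cy5 they were 0.09, 1.13 and 0.48. Raw intensities were 4.52 to 7.29 in the group's channel of the Post30 arrays, against 3.79 to 7.39 on the PostC arrays, and they overlapped. Mm::M200002838 had ratios of 0.12, 0.03 and -0.09 in Post30, against -0.29, -0.26 and -0.36 in PostC, with a difference of 0.32 (SE 0.068, adjusted p = 0.208 with limma). For this probe the adjusted p with limma ran from 0.0845 among probes detected on most arrays to 0.999 under median centring. Both probes were dim beside those that fell, with 76.2% and 74.1% of the probes tested dimmer than they were.

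The threshold fell just before a run of probes with a tied adjusted p. The 7 probes next in rank shared an adjusted p of 0.0504 with limma, 6 of them lower and 1 higher in Post30, with differences of 0.51 to 0.75 in size. The tie comes from the Benjamini-Hochberg adjustment. Their unadjusted p with limma ran from 1.23e-05 to 3.08e-05, against 6.16e-06 for the third probe that passed. At an adjusted p under 0.1 there were 15 probes (0.0916%), 13 lower (0.0794%) and 2 higher (0.0122%). The 16th had an adjusted p of 0.105.

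Of the 13 lower probes, all had a lower ratio in Post30 in each of 3 numbers and in both dye orientations of each number. Their median ratio over IR was -0.51 in Post30 and 0.06 in PostC, and their differences ran from -1.29 to -0.39. Their median ratio was -0.07 in PreC and -0.13 in the non-ischemic region. The probes were chosen by Post30 being below PostC, so the place of Post30 among the groups is largely fixed by that choice, and these values are given as a description. The choice used the average over numbers and orientations, so it also favours probes whose signs agree between them. Over all 16371 probes, 13.5% were lower in Post30 in all 3 numbers. PostC lay below IR in 2 of the 13 probes. In the group's channel the differences were -1.14 to -0.39, and in the IR channel they were -0.15 to 0.16. All 13 belonged to the brightest 4093 of the 16371 probes, and 12 were detected on all 12 arrays in the group's channel.

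The 2 higher probes both lay lowest in PostC, at -0.98 and -0.35, against -0.29 and 0.13 in Post30. They were chosen by Post30 being above PostC, so this place of PostC is largely fixed by that choice. The probe at -0.98 in PostC was detected on 4 of 12 arrays, and its Post30 ratios were -0.48, 0.46 and -0.84 in replicates 1, 2 and 3. Its PostC ratios were -1.11, -0.65 and -1.19, so the groups overlapped while every paired difference was positive.

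**Figure D2:**
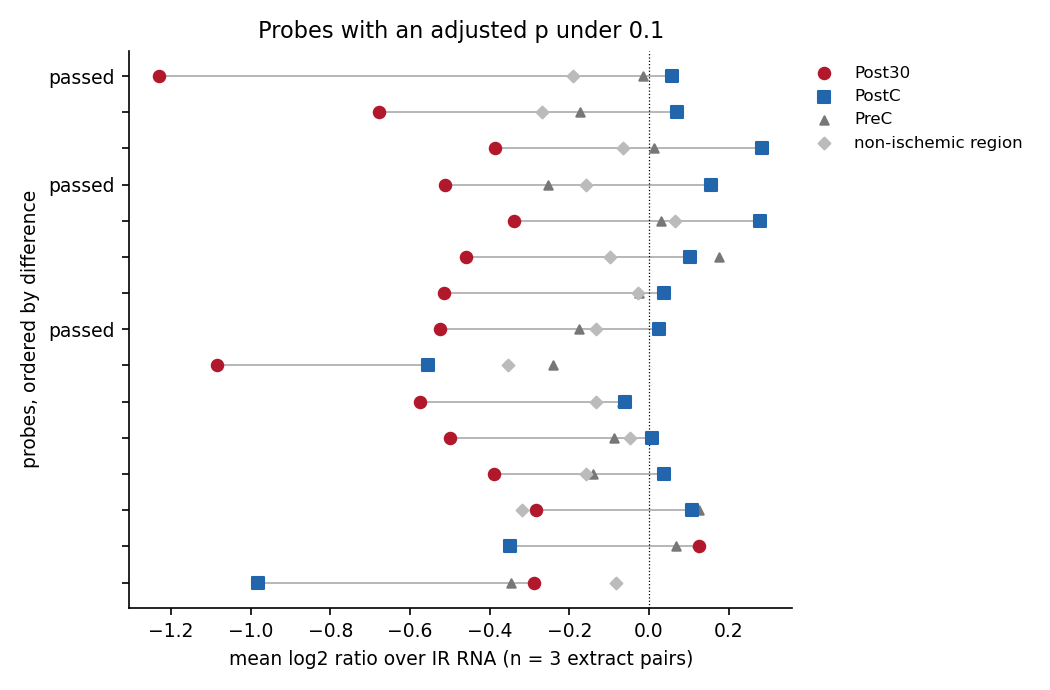
Mean log2 ratio over IR RNA (n = 3 extract pairs) of the 15 probes with an adjusted p under 0.1, ordered by the difference, with red circles for Post30, blue squares for PostC, triangles for PreC and diamonds for the non-ischemic region. Rows marked passed had an adjusted p under 0.05. Post30 lies left of PostC in the 13 probes at the top and right of it in the 2 at the bottom, which follows from how the probes were chosen.

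A difference of 1.5-fold between the protocols was rare. It was passed by 14 of 16371 probes (0.0855%), 4 higher (0.0244%) and 10 lower (0.0611%) in Post30. Of these, 12 (0.0733%) had the same sign in all 3 numbers, 4 higher (0.0244%) and 8 lower (0.0489%). Within single numbers it was passed by more probes: 79 higher and 89 lower in number 1, 59 higher and 63 lower in number 2, and 47 higher and 38 lower in number 3. The same sign in all 3 numbers was shared by 4673 probes (28.5%), 2461 higher (15%) and 2212 lower (13.5%) in Post30. The Post30 and PostC ratios did not overlap for 1624 probes (9.92%), 844 higher (5.16%) and 780 lower (4.76%). With 3 values a group, shared signs and groups without overlap also arise often where there is no difference. These 2 shares were not tested against that level, so they are not by themselves a result. For a typical probe the 95% interval of the difference reached 0.18 to either side.

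**Figure D3:**
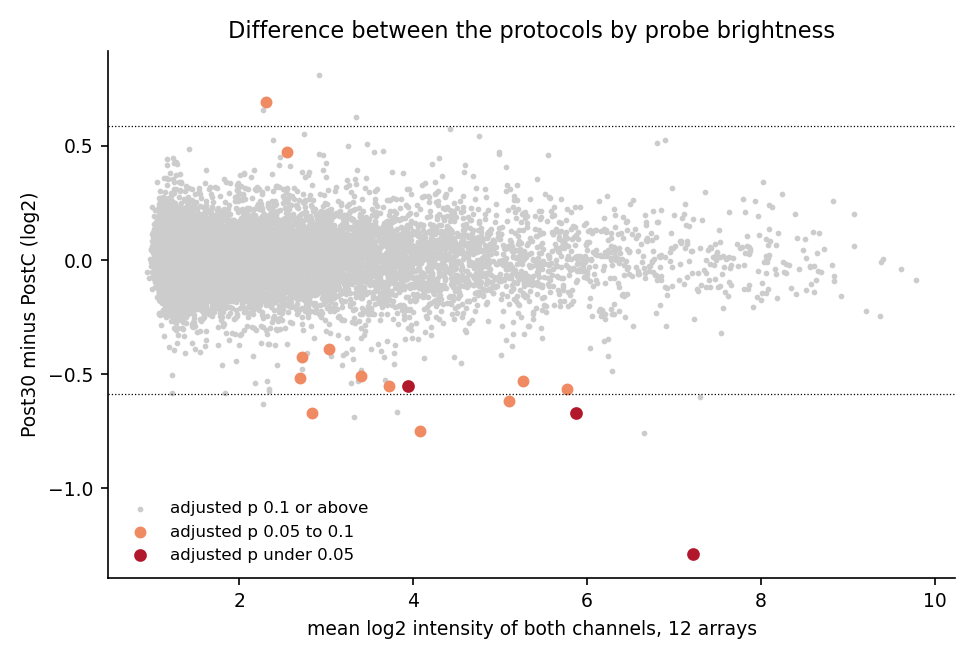
Difference between Post30 and PostC (log2, vertical axis) of each of 16371 probes against its mean log2 intensity over both channels and 12 arrays (horizontal axis). Dotted lines mark 1.5-fold. The 3 probes with an adjusted p under 0.05 (dark red) and 13 of the 15 under 0.1 lie below 0, and the largest fall is at -1.29 among bright probes.

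The difference was shared between replicate numbers mainly by bright probes. Probes were divided into 4 classes of equal size by mean intensity. In the brightest class the differences of numbers 1 and 2 correlated with r = 0.128, those of numbers 1 and 3 with r = 0.308 and those of numbers 2 and 3 with r = 0.254, across 4093 probes that share arrays and are not independent replicates. In the dimmest class r was 0.01, -0.03 and -0.04 in the same order of pairs. In the dimmest class 122 probes (2.98%) had an unadjusted p under 0.05, in the second 197 (4.81%), in the third 301 (7.36%) and in the brightest 466 (11.4%). The share thus rose with brightness, against 6.63% over all probes. In the brightest class 239 of the 466 were higher and 227 lower in Post30, so the direction was nearly balanced there, while 9 of its 11 differences past 1.5-fold were lower.

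The dye orientations of a number gave like differences for bright probes. Between the orientations of the same number, differences correlated with r = 0.808 in number 1, 0.563 in number 2 and 0.502 in number 3 in the brightest class, and with r from 0.102 to 0.314 between orientations of different numbers. In this class each of the 3 values within a number exceeded the highest value between numbers. These are descriptions across 4093 probes. Number 1 had the widest differences in this class, with an SD over probes of 0.242, against 0.167 in number 2 and 0.176 in number 3.

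**Figure D4:**
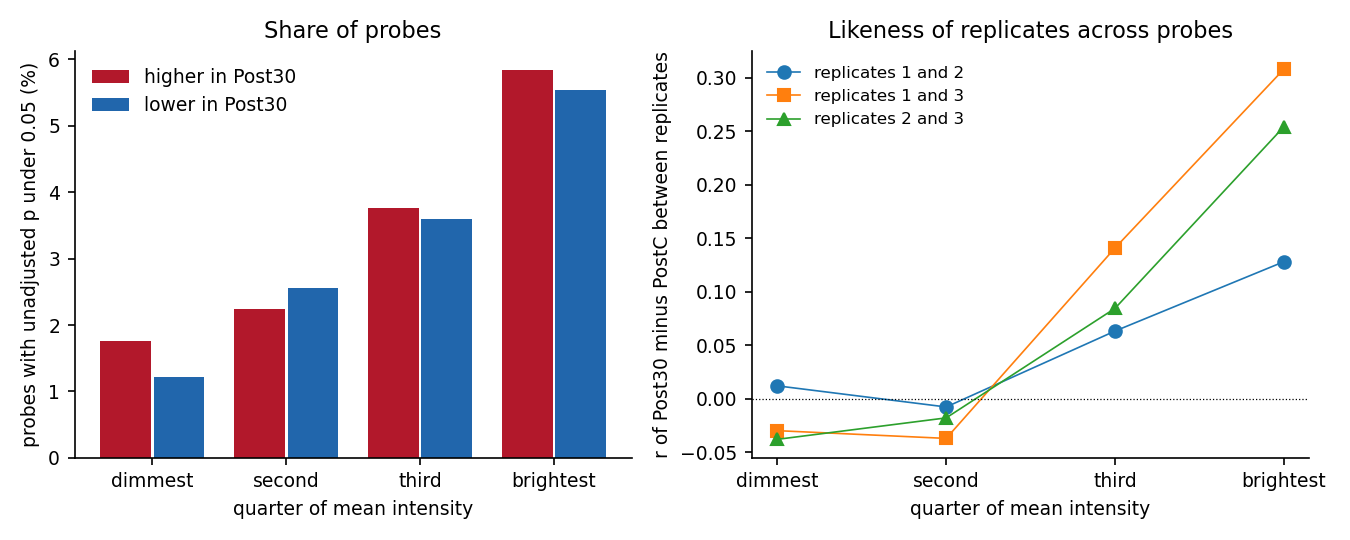
Left, share of probes (%) with an unadjusted p under 0.05 in 4 classes of mean intensity, with red bars for probes higher in Post30 and blue bars for probes lower in Post30. Right, correlation across probes of the Post30 minus PostC difference between replicate numbers in the same classes. The share rises over all 4 classes, to 11.4%, and the correlations rise from the second class on, to r from 0.128 to 0.308 in the brightest.

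Early postconditioning lay farther from IR than delayed postconditioning for more of the bright probes. The absolute mean ratio was larger in Post30 for 1471 of the 4093 brightest probes and larger in PostC for 2622, and over all 16371 probes it was larger in Post30 for 7123 and in PostC for 9248. The SD of the ratios over the 4093 brightest probes was 0.187, 0.195 and 0.185 in Post30 replicates 1, 2 and 3, against 0.210, 0.217 and 0.208 in PostC replicates 1, 2 and 3. Post30 was the lower by about 0.02 in each of 3 numbers (mean difference -0.0224). An exact two-sided permutation test that flips the sign of each pair gave p = 0.25, the smallest that 3 pairs allow. The number of detected spots also differed between the groups, as given above, and its part in this difference was not tested. Between Post30 and PostC arrays of the same number, the group's channel of the brightest probes differed with an SD of 0.241, 0.215 and 0.182 in numbers 1, 2 and 3, and the IR channel with 0.109, 0.145 and 0.101. The channel read as the group's thus varied more than the channel read as IR in 3 of 3 numbers.

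A set of 12 probes was printed on 17 spots each, which allows the error of the spots to be set beside that of the replicates. None of these 12 passed (smallest adjusted p = 0.742 with limma, 1 with an unadjusted p under 0.05), and 9 were higher and 3 lower in Post30 on average. Their mean differences ran from -0.11 to 0.24. The SE over spots within a number had a median of 0.020, and the SD between numbers had a median of 0.112. Spots of 1 array share their RNA, labelling and hybridisation, so the spot SE holds less error than the spread between numbers. The probe with the highest mean difference, 0.24, was 0.44, 0.15 and 0.13 higher in Post30 in numbers 1, 2 and 3. Another probe of this set swung in both directions. It was at -0.31, -1.41 and 1.26 over IR in Post30 replicates 1, 2 and 3, against 0.10, -2.43 and 1.61 in PostC, so its difference was -0.41, 1.03 and -0.35. The SE over its 17 spots was 0.051, 0.075 and 0.029 in numbers 1, 2 and 3. In the PreC pairs it lay at -1.90, -1.27 and -2.18, and in the non-ischemic region at -1.02, -3.87 and -1.84.

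**Figure D5:**
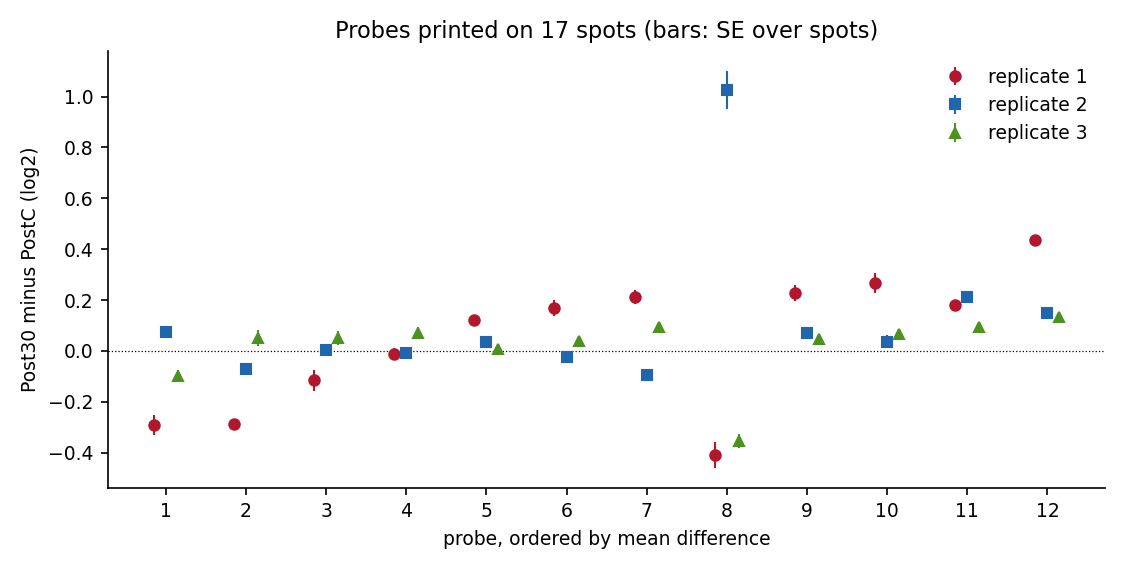
Difference between Post30 and PostC (log2) of the 12 probes printed on 17 spots, in replicate 1 (circles), 2 (squares) and 3 (triangles), with bars for the SE over spots. The probe at place 8 lies at 1.03 in replicate 2 and below -0.35 in the others.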

How the data were processed

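Per the file headers, the array files deposited by the authors give, for 17664 spots, foreground intensity, local background intensity and a quality mark. RNA was amplified before labelling, per the labels' protocols. The image software was not given in the sources used here. A value table deposited by the authors holds log2 ratios; set against the array files they run as channel 1 over channel 2, and how they were normalized is unknown. Its sign was turned, and its column medians lay between -0.011 and 0.0072 on these arrays. With the differences computed here, its Post30 minus PostC difference correlated with r = 0.614, and 0.957 in the brightest class.

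Mouse probes took 16655 spots; the other 1009 (controls and empty spots) entered no test and were given weight 0 in loess. Marked spots (3 to 25 per array) were left out, and 92 probes lacking a value in at least 1 of the 6 extract pairs were not tested. Background was corrected with normexp, with an offset of 50 scaled to the highest intensity of 1356, which gave 1.03. Each array was then normalized by loess (limma 3.58.1, R 4.3.3). Both dye orientations were averaged. All 12 extract pairs of the series were fitted with group means and the replicate number as a fixed block (lmFit and eBayes, 6 residual degrees of freedom), and p-values were adjusted over all probes at 0.05. The fit was tested on simulated data.

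The replicate numbers come from the labels' titles. Deviations of Post30 and PostC from their group means correlated with r = 0.232, 0.396 and 0.319 for the same numbers. For different numbers r ran from -0.297 to -0.000841. Deviations from a mean cancel within a group, so values of opposite sign for different numbers are partly built in. What samples of the same number share was not tested. The named probes are the 2 with the largest fall and the 2 with the largest rise among those that passed with the same sign in all numbers, filled by smallest p among probes detected on 7 or more of the 12 arrays. At most 4 IDs are printed because the files do not pair them with genes. Members, rules and tests were chosen with earlier results of these data known.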

Additional observations from a re-analysis of the deposited data

Results flagged for a closer look

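Spots of the controls 1DR to 6DR, outside every comparison of mouse probes, gave a signal above IR in both protocols. After loess their mean log2 ratio over IR was 0.52, 0.61 and 0.72 in Post30 replicates 1, 2 and 3, against 0.71, 0.81 and 0.73 in PostC, with means of 0.62 ± 0.10 in Post30 and 0.75 ± 0.05 in PostC (SD, n = 3 each). The paired differences were -0.20, -0.20 and -0.0036, with a mean of -0.13. An exact two-sided permutation test that flips the sign of each pair gave p = 0.25, the smallest that 3 pairs allow. All 6 control probes had a lower mean in Post30, by 0.10 to 0.20, but they share the same arrays and their signs were mixed in number 3. There 1DR, 4DR, 5DR and 6DR were higher in Post30, with differences of 0.14, 0.06, 0.08 and 0.0023. The differences of 2DR and 3DR in number 3 were -0.29 and -0.0098. The controls 1RC to 4RC lay at 0.60 ± 0.12 in Post30 and 0.66 ± 0.05 in PostC (SD, n = 3 each). The mouse negative controls lay at -0.0034 ± 0.017 in Post30 and -0.0027 ± 0.013 in PostC (SD, n = 3 each). The content of these controls was not given in the sources used here.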

How the results depend on the processing

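The replicate block pairs the 2 protocols. The 3 calls became 1 with no replicate block and 2 with it as a random block, while the conditioning groups alone and Post30 and PostC alone, both paired, gave 7 each, with 6 of the 7 lower in the last. There were 0 calls with the offset of 50 and with IR in Cy3 only, and 1 with IR in Cy5 only and under median centring. Probes detected on most arrays gave 11, all lower, where fewer probes were tested. No background subtraction and the authors' values gave 2 each, 1 higher and 1 lower. Scaling to the control probes gave 3, 2 higher and 1 lower, as it adds 0.13 to every difference by construction. Marked spots kept and probes above median intensity gave 3. An adjusted p under 0.1 gave 15. Leaving out 1 replicate gave 0 to 4 calls: 3 without PostC replicate 3 (2 of them among the original 3), 4 without number 2 in every group (0 of them), 3 without number 3 in every group (1 of them), and 0 in the other 6 cases. The 15 probes with an adjusted p under 0.1 kept their sign under every alternative run in which they were tested. They were chosen for large differences on the same arrays, which favours a kept sign. Fewer of them stayed under 0.1 in most alternatives. With limma it was 0 with the offset of 50 and with IR in Cy3 only, 1 under median centring, and 15 with marked spots kept.

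At an unadjusted p under 0.05 there were 556 of 5668 probes detected on most arrays, 451 under median centring, 381 after scaling to the control probes and 773 to 1533 when leaving out 1 replicate; with no replicate block it was 760, or 4.64%. Mm::M200009417 lay between -1.43 and -0.94 under all alternatives and Mm::M200001855 between -0.73 and -0.36. Plain subtraction was not run to the end: loess gave no value for 5708 spots of 1 Post30 replicate 2 array, where 50.2% of spots sat at the floor in both channels. The spread of ratios over IR in the brightest class, whose alternatives were added after seeing the data, was lower in Post30 in each (-0.0317 to -0.0190). Cause was not tested for any of these.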
